A study of Rattus norvegicus with 52 samples.

Results

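Acta2 encodes smooth muscle alpha-actin, the main actin of contractile vessel wall cells. Single cells cut from rat arterial aneurysms were chosen by their own Acta2 counts: 12 of 52 cells had 5 or more counts and are called Acta2-positive, and 17 cells had 0 counts and are called Acta2-negative. The other 23 cells, with 1 to 4 counts, were left out. Of the Acta2-positive cells, 2 came from rat 2, 10 from rat 3 and 0 from rat 1. Of the Acta2-negative cells, 11 came from rat 2, 3 from rat 3 and 3 from rat 1. Cells of both classes shared the same background: male Sprague Dawley rats, 7 weeks old, in which one common carotid artery was joined to the other to form a new branch point, a renal artery was tied, and a high-salt chow held 3-aminopropionitrile, an inhibitor of lysyl oxidase. No artery without this model was analysed here. Nanoparticles loaded with the red dye DiI were injected, labelled cells were cut from the lesion by laser 3 days later, and each cell gave 1 SMART-Seq library. The labels call every cell a macrophage, but uptake of the dye and not a macrophage gene decided which cells were cut. The comparison asks which other contractile, matrix and macrophage genes were found beside Acta2. The tests set the classes side by side within rat 2 and within rat 3, so n is 2 rats for every test. Ranges, medians and numbers of cells given per gene pool the 12 and 17 cells unless a rat is named. In those values, differences between classes and between rats cannot be told apart.

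Smooth muscle cells contract when myosin motors pull on filaments of actin, and they hold a shared set of filament, motor and linker proteins to do so. Serum response factor and its partner myocardin switch many of these genes on by binding a short element known as the CArG box. In a diseased artery, muscle cells can lose this programme and make matrix, fibroblasts can gain Acta2, and macrophages take up particles and debris.

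The promoters of the actin genes that were found together in Acta2-positive cells are shown first, because 4 of them hold a CArG box, or a run that departs from its usual form at 1 inner letter, near the start of transcription. Sequences are from RefSeq, build GRCr8, and cover the 90 bases from -150 to -61 relative to the transcription start. Capitals mark the usual form in Acta1 and Actg1, and in Acta2 and Actc1 a shared run that departs from it at 1 letter.
Acta2 (smooth muscle alpha-actin), chr1:241172564-241172653, minus strand: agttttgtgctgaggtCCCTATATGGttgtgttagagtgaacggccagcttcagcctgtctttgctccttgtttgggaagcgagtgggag
Acta1 (skeletal muscle alpha-actin), chr19:68784255-68784344, minus strand: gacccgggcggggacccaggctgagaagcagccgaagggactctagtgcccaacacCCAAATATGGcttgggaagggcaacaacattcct
Actc1 (cardiac muscle alpha-actin), chr3:121271888-121271977, minus strand: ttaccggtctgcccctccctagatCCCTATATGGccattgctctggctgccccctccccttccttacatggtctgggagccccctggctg
Actg1 (cytoplasmic gamma-actin), chr10:106121012-106121101, minus strand: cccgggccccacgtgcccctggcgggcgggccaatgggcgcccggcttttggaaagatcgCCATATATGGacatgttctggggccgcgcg
The run of Acta2 starts at -134 and has the same 10 letters, CCCTATATGG, as the run of Actc1 at -126. This 10-letter run, taken from the Acta2 promoter and searched on both strands, is in 4 of 33469 RefSeq promoters (0.0120%). Acta2 and Actc1 are among the 4, so this share is no test of their match. The CArG box by its usual form, which is its own reverse complement, is in 548 of the 33469 (1.64%). That form or one with 1 inner letter off is in 3154 (9.42%). Other runs with 1 inner letter off, not in capitals, start at -84 in Acta2 and at -89 in Actc1. The elements of Acta1 and Actg1 start at -94 and -90, and Actc1 holds the usual form at 3, outside the stretch shown. No match to the usual form or to a form with 1 inner letter off was found in the promoter windows of the smooth muscle gamma-actin gene Actg2, the beta-actin-like gene Actbl2 or the calponin gene Cnn1.

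Acta2 counts and library depth were read first, since the rule used raw counts. In Acta2-positive cells Acta2 ran from 5 to 131 counts with a median of 11.5, or 133 to 4165 CPM (counts scaled to a common library total) with a median of 437. Just inside the rule lay rat 3 cell 33 with 5 counts, cells 40 and 46 of rat 3 with 6 each and rat 3 cell 36 with 7. Just outside lay rat 3 cell 32 with 4 counts and 4 cells with 3. On the CPM scale cell 32 stood at 442 CPM and cell 33 at 133 CPM.

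The Acta2-negative class was bounded by depth. With 3 counts taken as the limit that a 0 allows, an Acta2-negative cell could hold up to 82.9 to 1951 CPM, with a median limit of 293 CPM. In 15 of the 17 cells that limit was above the lowest Acta2-positive level, and in 4 it was above the median one. Such limits cover counting error only.

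**Figure D1:**
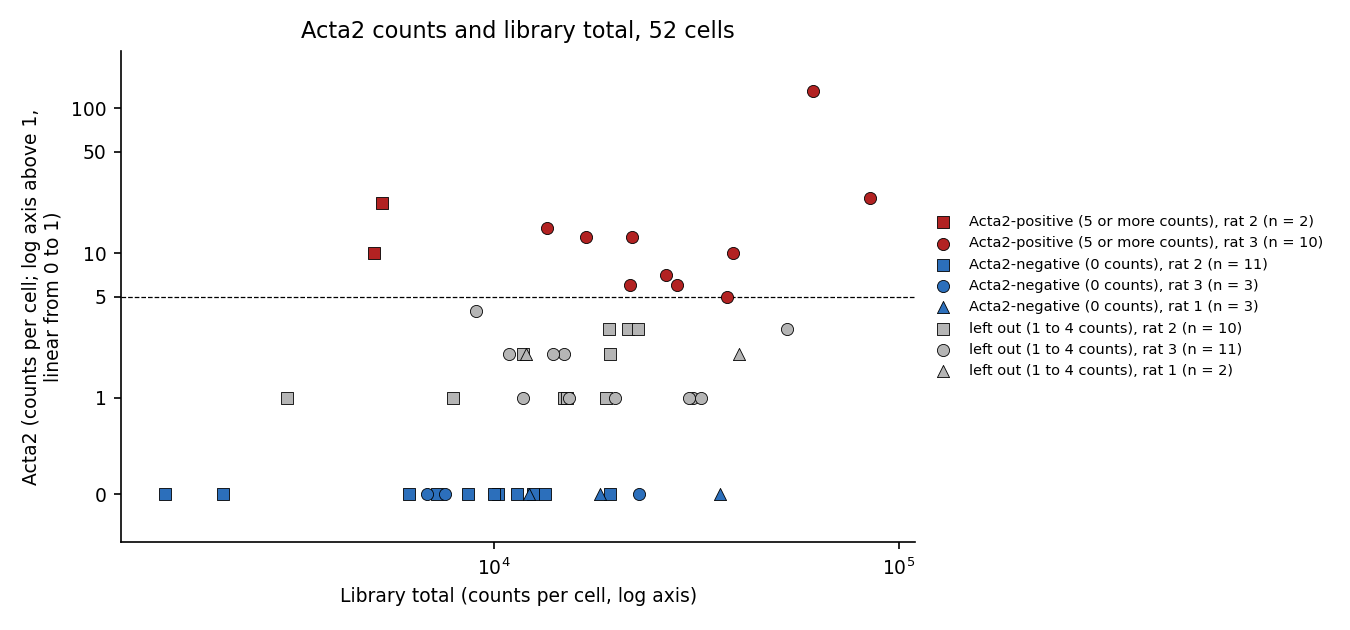
Acta2 counts per cell (vertical axis, log above 1 and linear from 0 to 1) against library total in counts (horizontal axis, log) for 52 cells, with colour for the class and shape for the rat. The Acta2-positive cells of rat 2 had totals of 5044 and 5282, while those of rat 3 ran from 13530 to 84848, and the dashed line marks 5 counts.

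Library totals differed between the classes in opposite directions in the 2 rats. In rat 3 the Acta2-positive cells had 13530 to 84848 counts with a median of 27494, and the 3 Acta2-negative cells had 6845, 7556 and 22825. In rat 2 the Acta2-positive cells had 5044 and 5282 counts, and the Acta2-negative cells had 1538 to 19338 with a median of 10025. The totals overlapped in both rats. The mean difference in log2 total was 0.48 ± 1.46 (SD, n = 2 rats), with a 2-sided exact sign-flip p of 1, and with 2 rats that test cannot go below 0.5. Genes with a count per cell followed the totals, at 833 to 5417 (median 4035) in Acta2-positive cells and 384 to 4649 (median 1486) in Acta2-negative cells. When each cell was thinned to 5000 counts, Acta2 kept 5 or more counts in 3 of the 12 positive cells, had 1 to 4 in 7 and had 0 in 2. Over all 52 cells Spearman's rho between Acta2 counts and library total was 0.42, a description of cells that share 3 rats.

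Each other actin gene reached 5 counts in a larger share of Acta2-positive than of Acta2-negative cells, and so did most genes. Of 524 genes with 5 or more counts in at least 5 of the 29 cells, 444 had the larger share in Acta2-positive cells. The smaller share was there for 73. Acta1 had 5 or more counts in 7 of 12 Acta2-positive cells and in 3 of 17 Acta2-negative cells. The Acta2-positive cells of rat 2, cells 6 and 21, had 23 and 65 Acta1 counts. In rat 3, Acta1 had 110 counts in cell 30, 363 in cell 38, 144 in cell 44, 190 in cell 47 and 123 in cell 52. The other 5 Acta2-positive cells, cells 33, 36, 40, 43 and 46 of rat 3, had 0 Acta1 counts. Among Acta2-negative cells Acta1 had 104 counts in rat 3 cell 45, 20 in rat 3 cell 31, 12 in rat 2 cell 15, 1 in rat 1 cell 2 and 0 in the other 13, so the classes overlapped. Within rat 3 the Acta2-positive cells held 930 Acta1 counts in 351920 and the 3 Acta2-negative cells 124 in 37226. That is a larger share in the Acta2-negative cells. Within rat 2 the order was the other way, with 88 in 10326 and 12 in 102579. In all 7 Acta2-positive cells with Acta1, Acta1 had more counts than Acta2.

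Actc1 had a count in 8 of 12 Acta2-positive cells, with a median of 2 and a highest value of 94 in rat 3 cell 44. In Acta2-negative cells it had 127 counts in rat 1 cell 2 and 0 in the other 16. Within rat 3 the Acta2-positive cells held 148 Actc1 counts in 351920 and the Acta2-negative cells 0 in 37226. Against a limit of 3 counts over the Acta2-negative cells of the rat, Actc1 was at least 5.22-fold higher in Acta2-positive cells, and at least 2.51-fold without rat 3 cell 44. Within rat 2 the Acta2-positive cells held 12 counts in 10326 and the Acta2-negative cells 0 in 102579, or at least 39.7-fold higher, and at least 20.3-fold without rat 2 cell 21. Over all cells Actc1 stood at 442 CPM in the 12 Acta2-positive cells and at 615 CPM in the 17 Acta2-negative cells, the second from the single cell of rat 1. Actg1, which forms the filaments of non-muscle cells together with beta-actin, had 0 to 80 counts (median 6) in Acta2-positive cells and 0 to 6 (median 0) in Acta2-negative cells. It reached 5 counts in 6 of 12 and in 1 of 17 cells. Actb, the beta-actin gene, had 0 to 86 counts (median 5) in Acta2-positive cells and 0 to 44 (median 0) in Acta2-negative cells, with 5 counts reached in 6 of 12 and in 2 of 17. Actg2 reached 5 counts in 5 of 12 Acta2-positive cells, with at most 21, and in 1 of 17 Acta2-negative cells, with 8. Actbl2, added to this account after its values were seen, reached 5 counts in 4 of 12 and in 1 of 17.

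Several actins were found in the same cells, a pattern noticed after the values were seen. Counting Acta1, Actc1, Actg2, Actb, Actg1 and Actbl2, cells 21 of rat 2 and 38, 44, 47 and 52 of rat 3 each had a count of all 6, and cell 30 of rat 3 had 5. Cells 33, 36, 43 and 46 of rat 3 had 1 each, and cell 40 had 0. Rat 2 cell 6 had 3. Rat 2 cell 15 was the Acta2-negative cell with the most actin genes, at 4. Coding sequences of actins are nearly identical, and how the authors' counting placed reads that match several of them is not given in the sources used here, so the split of counts between these genes is uncertain.

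**Figure D2:**
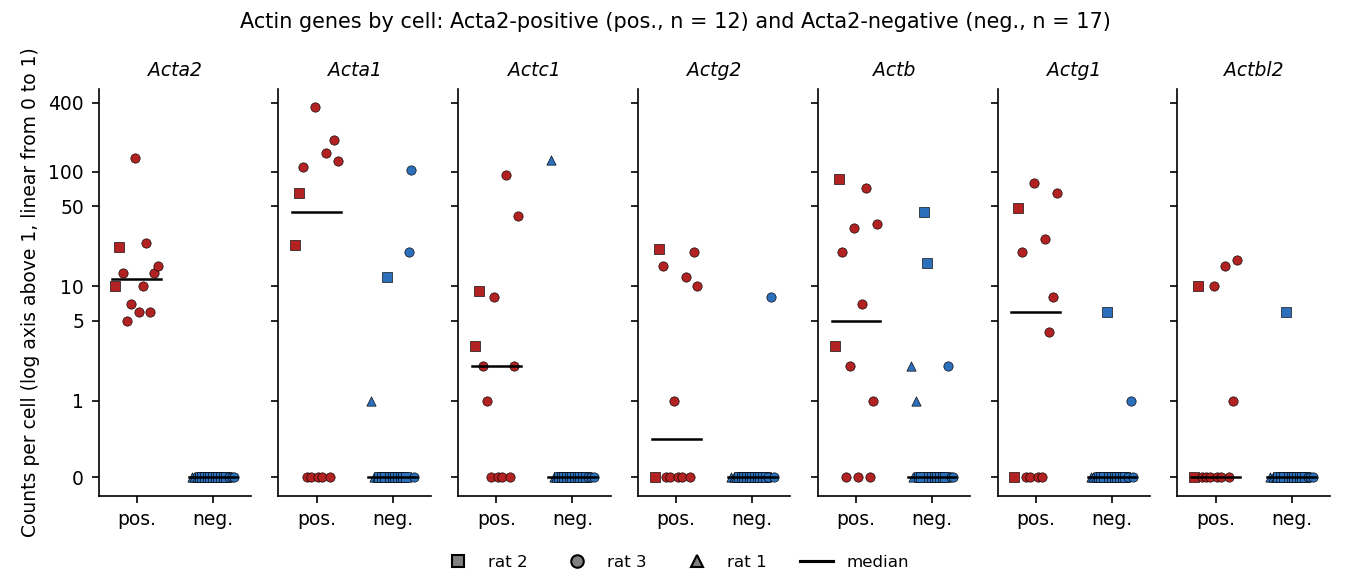
Counts of 7 actin genes in each Acta2-positive cell (left in each panel, n = 12) and Acta2-negative cell (right, n = 17), with the median as a bar, shape for the rat and a vertical axis that is log above 1 and linear from 0 to 1. Acta1 had a median of 44 counts in Acta2-positive cells and 0 in Acta2-negative cells, and each of the other actins overlapped between the classes apart from Acta2, which chose the cells.

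In edgeR's quasi-likelihood test on counts summed per rat and class, the 5 listed actins (Acta1, Actc1, Actg2, Actb and Actg1) all had positive log2 fold changes and 0 passed an adjusted p of 0.05. Across all 590 genes tested, 0 were called in either direction (0%), so the actin count of 0 of 5 equals the background. The log2 fold change was 2.55 ± 2.83 (SE) for Acta1, 5.09 ± 2.74 for Actg1, 3.18 ± 2.37 for Actb and 3.53 ± 3.60 for Actg2, each with an adjusted p of 1.00 from edgeR. For Actc1 the adjusted p was 0.520, and its fitted fold is no bound because one class was at 0. The median over the 5 actins was 3.53, or 3.18 with Actc1 set to its bound in rat 3, beside -0.24 over all genes tested. Without scaling factors the median of all genes was 0.06, and these values are read relative to that shift. Single cells and rats decided some sizes. Without rat 2 cell 21 the Actg2 value was -0.47 and the median of the 4 actins still tested was 1.41. Without rat 2 the values were -0.02 for Actg2 and 0.02 for Acta1.

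A pair of genes outside the actins was high in the same Acta2-positive cells, a choice made after the values were seen. Eef1a1, a translation elongation factor, had 10 and 16 counts in cells 6 and 21 of rat 2, and 37, 19, 309 and 30 in cells 30, 38, 44 and 52 of rat 3, with 0 in the other 6. Eef1a2, its form in muscle and nerve, had 7 and 8 counts in the same cells of rat 2, 30, 392, 12 and 24 in the same cells of rat 3, and at most 1 elsewhere in the class. In Acta2-negative cells Eef1a1 had at most 5 counts and Eef1a2 at most 30. Each of the pair reached 5 counts in 6 of 12 Acta2-positive and in 1 of 17 Acta2-negative cells. By that gap in shares both stood at rank 108 of the 524 genes with 5 or more counts in at least 5 of the 29 cells. Of these 524, 129 (24.6%) reached 5 counts in at least 6 Acta2-positive and at most 3 Acta2-negative cells. The log2 fold change was 3.89 ± 2.57 (SE) for Eef1a1 and 2.69 ± 2.72 for Eef1a2, both with an edgeR adjusted p of 1.00. How counting treated reads shared by the pair is not known from the sources used here.

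Of the standard smooth muscle markers, Tagln, Cnn1 and Myl9 had at most 2 counts in any cell of either class, and others reached higher counts in single cells. Tagln, the actin-binding protein transgelin, had 0 to 2 counts in Acta2-positive cells, with a count in 3 of 12, and 0 counts in all 17 Acta2-negative cells. Myh11, the smooth muscle myosin heavy chain, had 7 counts in rat 3 cell 38, 1 or 2 in 3 other Acta2-positive cells and 0 in the remaining 8. It had at most 2 in Acta2-negative cells, found in 2 of 17. Cnn1, which encodes calponin, had 1 count in a single cell of each class. Myl9, the regulatory myosin light chain of smooth muscle, had at most 2 counts in Acta2-positive cells and 0 in Acta2-negative ones. Tpm2, the muscle tropomyosin, had 0 in all 12 Acta2-positive cells and up to 20 in Acta2-negative cells. Among the remaining markers, Smtn (smoothelin) had 4 counts in rat 3 cell 46 and 0 in every other cell of both classes, and Lmod1 (leiomodin) had at most 2 counts in Acta2-positive cells and 1 in Acta2-negative cells. Des, the muscle filament protein desmin, had 6 counts in rat 3 cell 43 and 2 in rat 3 cell 47, against 1 in a single Acta2-negative cell. Cald1, which encodes caldesmon, had 31 counts in rat 3 cell 43, against at most 3 in Acta2-negative cells. The ranges of the classes overlapped at 0 for every one of these genes.

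The contractile genes found most widely, Vcl and Mylk, are expressed in many cell types. Vcl, which encodes vinculin of cell adhesions, had 0 to 40 counts (median 9) in Acta2-positive cells and 0 to 57 (median 14) in Acta2-negative cells. Mylk, the kinase that activates myosin, had a count in 11 of 12 Acta2-positive cells, with a median of 3 and at most 13. In Acta2-negative cells it had a count in 10 of 17, with a median of 1 and at most 9. The ranges of both genes overlapped widely. Of 36 contractile genes measured besides the actins, 34 had a count in at least 1 Acta2-positive cell and 29 in at least 1 Acta2-negative cell. At 5 counts the numbers were 12 and 14. Such numbers, here and for the lists below, pool cells of unequal depth, and no like number over all genes was taken. In the edgeR test 3 of the 36 passed the filter on low counts (Mylk, Vcl and the myosin light chain Myl6), 0 were called, and their median log2 fold change was -1.09. Mylk had a log2 fold change of -0.76 ± 1.91 (SE, edgeR adjusted p = 1.00). Fewer transcripts per cell and a shallower library cannot be told apart at such counts.

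The factors that act on this programme were close to the limit of detection. Srf had at most 5 counts and Myocd, myocardin, at most 4 in Acta2-positive cells. In Acta2-negative cells Srf had at most 1, and Myocd had 173 counts in rat 3 cell 45 and at most 4 in the other 16. Klf4, a factor that represses contractile genes, had a count in 8 of 12 Acta2-positive cells, up to 7, and in 6 of 17 Acta2-negative cells, up to 3. Adra1d, an adrenergic receptor of vascular muscle, had 0 to 58 counts (median 11.5) in Acta2-positive cells and 0 to 7 (median 1) in Acta2-negative cells. It reached 5 counts in 7 of 12 and in 2 of 17 cells, and its ranges overlapped. Its log2 fold change was -0.58 ± 2.11 (SE, edgeR adjusted p = 1.00), and after thinning it had a count in 7 of 12 Acta2-positive and 8 of 15 Acta2-negative cells. None of the 18 members measured of the list of serum response factor and its partners passed the filter of the edgeR test.

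Collagen genes were high in a few cells of each class. Col1a1, the chain of type I collagen, had 397 counts in rat 3 cell 33 and 293 in rat 3 cell 43, and 0 to 6 in the other 10. In Acta2-negative cells Col1a1 had 398 counts in rat 2 cell 20, 356 in rat 2 cell 14 and 197 in rat 3 cell 45, with a median of 0. Col3a1, type III collagen, followed the same cells, with 304 in cell 33 and 75 in cell 43 of rat 3 and at most 1 elsewhere among Acta2-positive cells. It had up to 215 in Acta2-negative cells. High collagen was therefore present on both sides of the rule.

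Cells 33 and 43 of rat 3 also held most of the other matrix and mesenchymal counts among Acta2-positive cells. Sparc, a collagen-binding glycoprotein, had 231 and 17 counts in them and at most 1 in the other 10. In Acta2-negative cells it had 0 to 47 counts. Vim, the intermediate filament vimentin, had 275 and 204 counts in cells 33 and 43 and at most 2 in the other 10, against 0 to 46 in Acta2-negative cells. Tnc, the glycoprotein tenascin C, had 614 of its 619 Acta2-positive counts in cell 33, and Bgn, the proteoglycan biglycan, had up to 118, against at most 15 Tnc and 12 Bgn counts in Acta2-negative cells. Fn1, which encodes fibronectin, had its highest values in the other class, with at most 6 counts in Acta2-positive cells and up to 264 in Acta2-negative cells. Lox, the enzyme that crosslinks collagen and elastin and the target of the inhibitor in the chow, had at most 1 count in Acta2-positive cells and 71 counts in 1 Acta2-negative cell, rat 2 cell 14. Mgp, a calcification inhibitor of the vessel wall, had 45 counts in rat 3 cell 43 among Acta2-positive cells and 55 in rat 2 cell 20 among Acta2-negative cells. Fbn1, fibrillin of elastic fibres, had 0 to 31 counts in Acta2-positive cells and 0 to 8 in Acta2-negative cells. Col4a1, a basement membrane collagen, had 33 counts in rat 3 cell 43 and at most 2 in Acta2-negative cells. Eln, elastin, had 1 count in a single cell of each class.

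Of 85 matrix genes measured, 76 had a count in an Acta2-positive cell and 74 in an Acta2-negative cell, and at 5 counts 27 and 33. The edgeR test took in 11 of the 85, called 0, and gave a median log2 fold change of -0.81. That median was -6.56 in rat 2 alone and -1.33 in rat 3 alone, and single cells moved it as far as 0.26. Col1a1 had a log2 fold change of -4.48 ± 2.57 (SE, edgeR adjusted p = 1.00), and the 2 Acta2-positive cells of rat 2 had 0 Col1a1 counts in totals near 5000.

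**Figure D3:**
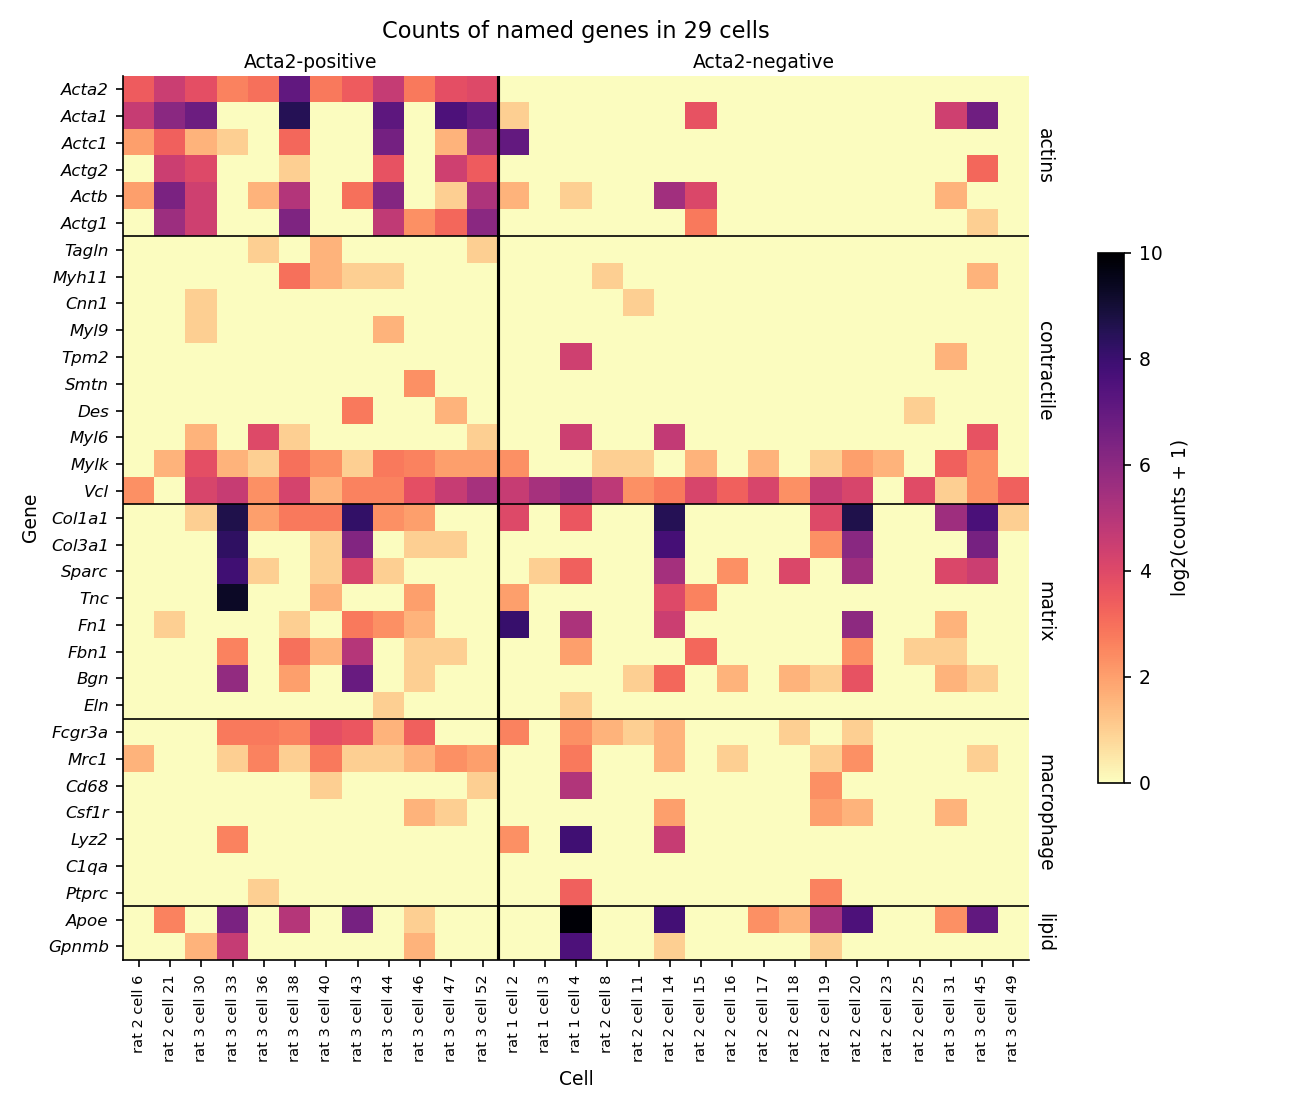
Counts of actin, contractile, matrix, macrophage and lipid-handling genes as log2(counts + 1) (colour) in 12 Acta2-positive cells (left of the line) and 17 Acta2-negative cells (right), 1 column per cell and 1 row per gene. Acta1 is dark in 7 Acta2-positive columns, Col1a1 is dark in 2 others of that class and in 3 Acta2-negative ones, and Tagln, Cnn1 and Myl9 are near 0 throughout.

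Macrophage markers were sparse in most cells of both classes, with a median of 16% of the list found in Acta2-positive and 8% in Acta2-negative cells. Cd68, a lysosomal glycoprotein of macrophages, had 1 count in 2 of 12 Acta2-positive cells, and in Acta2-negative cells 33 counts in rat 1 cell 4 and 4 in rat 2 cell 19. Csf1r, the receptor that sustains macrophages, had a count in 2 of 12 Acta2-positive cells and in 4 of 17 Acta2-negative cells, with at most 2 and 3 counts. Lyz2, lysozyme, had 5 counts in rat 3 cell 33 and 0 in the other 11 Acta2-positive cells, against 236 in rat 1 cell 4 and 23 in rat 2 cell 14 among Acta2-negative cells. Ctsb, the lysosomal protease cathepsin B, had 3 counts in 1 Acta2-positive cell, against 185 in the highest of 4 Acta2-negative cells with a count. Of the complement genes, C1qa was at 0 in both classes and C1qb had 2 counts in 1 Acta2-negative cell. The leukocyte gene Ptprc had 1 count in 1 Acta2-positive cell and 9 and 5 counts in 2 Acta2-negative cells.

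Fcgr3a, an Fc receptor for antibodies, was the only marker with 5 or more counts in at least 5 of the 29 cells. It had 0 to 13 counts in Acta2-positive cells, with 5 or more in 6 of 12, and 0 to 5 in Acta2-negative cells, with 5 in 1 of 17. All 6 cells came from rat 3. Their totals ran from 21685 to 61402, against at most 22825 in the Acta2-negative cells of rats 2 and 3. Scaled to library totals, the sums gave 144 CPM in Acta2-positive cells and 77.5 CPM in Acta2-negative cells. Of the 25 macrophage markers measured, 17 had a count in an Acta2-positive cell and 21 in an Acta2-negative one, and at 5 counts 5 and 15. The summed count of the list ran from 0 to 42 (median 8) in Acta2-positive cells and from 0 to 539 (median 6) in Acta2-negative cells. A single Acta2-negative cell of rat 1, which had no Acta2-positive cell, held the 539 counts and 11 of the markers at 5 counts. That is 44% of the list. Acta2-negative cells of rats 2 and 3 reached at most 12% and 4%, and Acta2-positive cells at most 12%. None of the 25 passed the filter of the edgeR test. Mrc1, the mannose receptor of macrophages and other scavenger cells, had 0 to 6 counts in both classes, with a count in 10 of 12 Acta2-positive and 6 of 17 Acta2-negative cells. Gpnmb, a glycoprotein of lipid-laden macrophages, had at most 24 counts in Acta2-positive cells and up to 185 in Acta2-negative cells. Apoe, a lipid carrier of macrophages and other cells, had 92, 84 and 31 counts in cells 43, 33 and 38 of rat 3 and 0 to 5 in the other Acta2-positive cells. It had up to 965 in Acta2-negative cells, and its log2 fold change was -3.19 ± 2.25 (SE, edgeR adjusted p = 1.00).

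Markers of other vessel wall cells also occurred in the Acta2-positive class. Pdgfrb, a growth factor receptor of pericytes and other mural cells, had 1 to 27 counts (median 12.5) in all 12 Acta2-positive cells and 0 to 17 (median 2) in Acta2-negative cells, found in 14 of 17. Its log2 fold change was -0.25 ± 1.95 (SE, edgeR adjusted p = 1.00), of opposite sign to the difference in raw counts. Notch3, another mural cell gene, was at 0 in Acta2-positive cells and had 1 count in 3 Acta2-negative cells. Kdr, the endothelial receptor for vascular endothelial growth factor, reached 5 counts in 6 of 12 Acta2-positive cells, with at most 10, and in 0 of 17 Acta2-negative cells, with at most 3. After thinning to 5000 counts it had a count in 6 of 12 Acta2-positive and 4 of 15 Acta2-negative cells. The whole endothelial list of 16 genes then differed by 0.486 ± 3.14 percentage points (SD, n = 2 rats), negative in rat 2 and positive in rat 3. Of 27 genes of striated muscle measured, 7 reached 5 counts in an Acta2-positive cell and 7 in an Acta2-negative cell, and 20 and 9 had a count at all. Acta2-positive libraries were deeper, with a median total of 24322 against 10233, so these numbers cannot be read as a trait of the list. After thinning, the share of the list found per cell differed by 8.85 points in rat 2 and -1.85 in rat 3. This list holds Acta1 and Actc1. The part of other cell types in the actin counts was not tested.

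Over all 590 genes the edgeR test called 0 higher and 0 lower in Acta2-positive cells, with 20 at an unadjusted p under 0.05, of which 10 were higher and 10 lower. The smallest adjusted p was 0.520, and 11 of the 20 had 0 counts in one class. Acta2 itself was left out of the test because it chose the cells. DESeq2 called 1 gene lower (the unnamed feature LOC100911847, adjusted p = 0.0074) and had 36 at an unadjusted p under 0.05, and limma on mean CPM called 0 and had 12. With cells thinned to 5000 counts edgeR called 1 gene higher, the unnamed feature AABR07015057.1, at a log2 fold change of 1.08 (adjusted p = 0.0391). That feature alone held up to 51.6% of the counts of an Acta2-positive cell, rat 3 cell 44. Without rat 3 cell 43 edgeR called 2 unnamed features higher and without rat 3 cell 46 it called 1. The fit rests on 4 summed libraries and 1 residual degree of freedom.

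The share of a list found per cell moved with depth. As deposited, Acta2-positive minus Acta2-negative cells differed by 4.28 ± 19.6 percentage points for the contractile list, 4.27 ± 8.77 for the matrix list and 0.733 ± 15.2 for the macrophage list, beside 3.52 ± 7.39 for all genes (SD, n = 2 rats). For each of these 3 lists the difference was negative in rat 2 and positive in rat 3, as it was for all genes and for the library totals, and the exact sign-flip p was 1. With every cell thinned to 5000 counts, which kept all 12 Acta2-positive and 15 of 17 Acta2-negative cells, the differences were -1.50 ± 7.49, -2.20 ± 3.11 and -2.24 ± 6.57 points, and -0.0884 for all genes. All 3 were within their spread between rats.

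The 5 other actins differed in the same direction in both rats. On average 80.0% of them had a count in an Acta2-positive cell of rat 2 and 7.27% in an Acta2-negative one. In rat 3 the shares were 58.0% in Acta2-positive cells and 33.3% in Acta2-negative cells. The difference was 48.7 ± 34.0 points as deposited and 45.2 ± 36.6 after thinning, positive in both rats, with an exact sign-flip p of 0.5, the smallest that 2 rats allow. Other lists were also higher in Acta2-positive cells of both rats. As deposited these included genes of transforming growth factor beta signalling (13.6 ± 15.3 points), housekeeping genes (13.2 ± 5.90), basement membrane and other collagens (9.30 ± 2.87) and striated muscle genes (8.68 ± 0.127). The striated muscle list holds Acta1 and Actc1. After thinning, the last 3 of these lists were negative in rat 3, at -1.48, -4.22 and -1.85 points in the same order. After thinning the transforming growth factor beta list (6.60 ± 1.92 points), the list of serum response factor and its partners (2.31 ± 1.96) and the immediate early genes (2.13 ± 1.70) were positive in both rats, each with an exact p of 0.5.

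**Figure D4:**
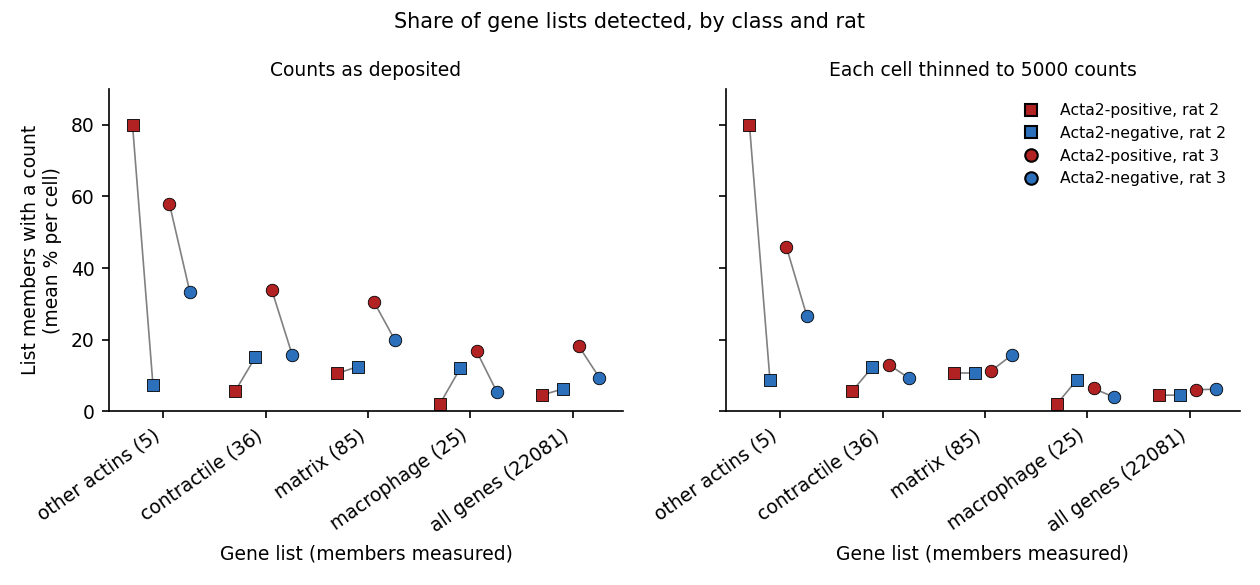
Mean percent of list members with a count per cell (vertical axis) for Acta2-positive (left in each pair) and Acta2-negative cells (right) of rat 2 and rat 3, as deposited (left panel) and with each cell thinned to 5000 counts (right panel), with the number of genes measured in brackets. The actins were higher in Acta2-positive cells of both rats in both panels, and after thinning the difference for all genes together was -0.0272 points in rat 2 and -0.150 in rat 3.

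The share of genes that were frequent in Acta2-positive cells and rare in Acta2-negative cells gives the background for the actins. Of 524 genes with 5 or more counts in at least 5 of the 29 cells, 129 (24.6%) reached 5 counts in at least 6 Acta2-positive and at most 3 Acta2-negative cells, a criterion set after the values were seen. Among these genes were 3 of the 5 other actins, 0 of 2 contractile genes, 0 of 5 matrix genes, 1 of 1 macrophage marker (Fcgr3a) and 1 of 20 ribosomal protein genes. The filter and the criterion used the same counts, and a gene could pass the filter mainly through Acta2-positive cells. Actg1, for one, passed it with 6 Acta2-positive cells and 1 Acta2-negative cell. These numbers are therefore a description and not a test. The widest gap belonged to Mpdz, a scaffold protein with many PDZ domains, at 10 of 12 Acta2-positive and 0 of 17 Acta2-negative cells. After thinning it had a count in 10 of 12 Acta2-positive and 9 of 15 Acta2-negative cells. Acta1 after thinning had a count in 7 of 12 Acta2-positive and 3 of 15 Acta2-negative cells. Before thinning, the gap in the share of cells at 5 counts put Actg1 at rank 108 of the 524 genes. Acta1 stood at 163, Actb at 178, Actg2 at 201 and Actc1 at 266.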

How the data were processed

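Counts per gene of 52 single-cell libraries were deposited by the authors in 1 table of 22081 features. Their values are whole numbers with totals that differ by cell, so they were used as raw counts, and the title of each cell gave its column. No source used here states the aligner, counter, genome build, strand setting or treatment of reads that match several genes. A short sheet that lists the cells was not used, and 0 columns were left unmapped. SMART-Seq reads carry no molecular identifiers, so limits cover counting error only. The 29 cells compared held 1538 to 84848 counts each, which limits what a count of 0 shows. Doublets were not searched for. Each cell was cut on its own, but whether a cut took in parts of neighbouring cells was not tested. Of the 29 cells, 0 pairs had identical columns, and the highest correlation of any pair was 0.534.

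Cells are not replicates of a condition. Counts were summed per rat and class (rats 2 and 3, 4 sums) and fitted with edgeR 4.0.16 (filterByExpr, TMM, quasi-likelihood F test, rat as a block because both classes come from the same animals, Benjamini-Hochberg adjustment over 590 genes), leaving out Acta2. Standard errors are the log2 fold change over the square root of F. Shares and levels were averaged over cells within each rat and class and compared by a 2-sided exact sign-flip test over 2 rats. Thinning drew 5000 counts per cell with a fixed seed. Alternatives used DESeq2 1.42.0, limma 3.58.1, other scalings, filters, cut-offs for Acta2, thinned cells, cells with totals in a shared range, no rat block, and each rat left out. Leaving out each cell and adding the cells of rat 1 were chosen after seeing the data. Scripts were tested on simulated data (Python 3.11.15, R 4.3.3).

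The genes named came from a set list of contractile, actin, matrix, macrophage and mural genes, the 3 members of each list with the most counts over Acta2-positive cells, and up to 10 called genes in each direction. Myl6, the third contractile gene tested, and those said to be so were chosen after their values were seen. The cut of 5 of 29 cells for frequent genes was set likewise. Col1a2 had no row and is not analysed here. The members, lists and tests were chosen with earlier results of these data known. Promoters are from RefSeq tables of build GRCr8, matched by symbol, and Actb, Tagln, Myh11 and Myl9 had no entry.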

Additional observations from a re-analysis of the deposited data

Results flagged for a closer look

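A value far from the rest was looked for in 8 quantities of the 10 Acta2-positive cells of rat 3, and 2 quantities held one. The rule used flags about 1 in 20 groups of normally distributed values by chance. Raw counts are not distributed so, and cells of 1 rat are not replicates, so that rate does not hold here. Both belonged to cell 38, which had 131 Acta2 counts and 363 Acta1 counts, each above the other 9 cells. These are raw counts, not scaled to the library total, and Acta2 counts also chose the cells. The total of that cell, 61402 counts, was within the range of the others.

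Cells that the tests within rats 2 and 3 did not use were searched for high Acta1 and Actc1 counts. A count was listed if above 3 and above every Acta2-negative cell of rats 2 and 3. Lower counts are not listed: Acta1 reached 5 counts in 3 of the 23 cells left out by the rule, with 306 counts in all. Among those 23 cells, Actb reached 5 counts in 5 and Actg2 in 3. Rat 2 cell 28, with 3 Acta2 counts, had 144 Acta1 counts and 5 Actc1 counts. Actc1 had 127 counts in rat 1 cell 2, 24 in rat 3 cell 50 and 4 in rat 2 cell 13. Of these, rat 1 cell 2 is an Acta2-negative cell, left out of the tests because rat 1 had no Acta2-positive cell. The labels give no reason to treat these cells apart.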

How the results depend on the processing

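Of the alternative values computed for all results, 614 were classed as the same, 11 as moved and 32 as changed in sign. For shares, levels and depth, the same meant an equal sign, and for single genes also an equal side of the 0.05 threshold. Medians of lists moved if they differed by the SD between rats or more. Numbers of genes called or of cells moved if they changed by more than a set factor or from 0. The cause was not tested in any case. Thinning gave 1 gene higher and DESeq2 1 gene lower, against 0 and 0, and no replicate block gave 0 and 0 (38 at an unadjusted p under 0.05). The block rests on both classes coming from the same rats. The limma median of the other actins was 5.80. With thinning, the contractile share was -1.50 points and its level -0.17 (log2 CPM), the matrix values were -2.20 and -0.24, and the macrophage share was -2.24. The matrix share was -0.963 with 3 counts as detection and -2.20 with 5, and the macrophage share -1.22 and -0.770. In the shared range of totals, 5044 to 36177, the matrix level was -0.14 and the macrophage share -0.556. With Acta2-positive set at 10 counts (8 cells) the matrix level was -0.0596 and the macrophage share -2. At 3 counts (17 cells) the macrophage level was 0.61 and Apoe 1.02. A pseudocount of 10 gave a matrix level of -0.0654, and equal weights a macrophage level of 0.0263.

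Leaving out 1 rat or 1 cell in turn gave 0 to 2 genes higher and 0 to 0 lower. Log2 fold changes ran from -0.47 to 9.22 for Actg2, from 0.02 to 5.45 for Acta1, from -1.09 to 0.0185 for Mylk and from -11.81 to -1.33 for Col1a1. Medians ran from 1.41 to 5.55 for the other actins, from -2.49 to -0.62 for contractile and from -6.56 to 0.26 for matrix genes. Shares ran from 24.7 to 72.7 points for the actins, -9.60 to 18.1 for contractile, -1.93 to 10.5 for matrix and -10 to 11.5 for macrophage genes. Levels ran from 2.28 to 8.61, -0.73 to 0.98, -0.14 to 0.23 and -0.80 to 0.58 in the same order. The log2 total ran from -0.56 to 1.51 and genes per cell from -376 to 1931. Without rat 2 or rat 3 no residual degree of freedom is left, so those are values with no test.

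With 2 rats holding both classes, 10 of 12 Acta2-positive cells from 1 animal and totals near 5000 in the other 2, a gene absent from a cell cannot be told apart from one missed. Raw counts as the rule favour deep libraries.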
